A study of Mus musculus with 12 samples.

Results

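The 28 genes described here encode the enzymes of sterol synthesis, carriers and receptors that take up and move sterol, and the SREBP system that controls both. They were chosen by name, and each was read from its brightest probe on Agilent mouse arrays that cover the genome and are read in 1 colour. They are 28 of 19669 genes tested. The cells were NIH3T3, an established line of mouse embryonic fibroblasts, grown in DMEM with calf serum, which supplies lipoprotein sterol to every group. For 18 h the cells received DMSO (the solvent), 50 nM rapamycin or 2 uM PP242, and 4 arrays were hybridised for each of these 3 groups. The treatment protocol in the labels gives 2 mM PP242 instead, while the design text and the sample characteristics give 2 uM. The design text speaks of independent experiments. Rapamycin inhibits the kinase complex mTORC1 allosterically, whereas PP242 competes with ATP in the mTOR kinase and so acts on mTORC1 and mTORC2. Each compound was used at a single dose and the doses differ, so the comparisons below are between treatments and not between compounds at a matched dose.

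Cholesterol is built from acetyl-CoA. The mevalonate arm makes isoprenoid units, which also feed protein prenylation, and the later steps turn farnesyl units into squalene, lanosterol and cholesterol. When sterol in the endoplasmic reticulum is low, SCAP escorts the SREBP transcription factors to the Golgi, where they are cleaved, and the freed factors switch on the genes of synthesis and uptake. When sterol is plentiful, INSIG proteins hold SCAP and SREBP back. In fibroblasts this loop balances synthesis against uptake from serum, and mTORC1 is known to promote SREBP activity, which is what makes these genes of interest in cells treated with mTOR inhibitors.

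SREBP binds the sterol response element, and the promoters of its targets often carry boxes for the cooperating factors NF-Y and Sp1. RefSeq promoter windows (GRCm38.p6; 300 bases, from 250 before to 50 after the gene start) were listed for 23 of the 28 genes. Both strands were searched. The NF-Y box, CCAAT, was found in 20 of these 23 windows (all but those of Acat2, Lrp8 and Scap), against 41.1% of 27025 genes. The Sp1 or GC box was searched as GGGCGG and was found in 20 of 23 (all but Pmvk, Ggps1 and Lrp8), against 38.2%. The E-box, CACGTG, was found in 5 of 23 (Hsd17b7, Sc5d, Dhcr7, Insig1 and Scap), against 8.09%. The sterol response element searched, TCACNCCAC, was found in 1 of 23, that of Hmgcs1, against 1.44% of all genes. It lay 137 bases before the start. A match is only a match of letters, and a missing match says nothing of binding. The 250 bases before the start are shown for Tmem97 and Mvd, the called genes with a listed window that holds any of these boxes and that went in opposite directions under PP242, for Hmgcs1, the one window with the sterol response element, and for Insig1, which holds an E-box and whose product restrains SREBP. Capitals mark the sterol response element, the NF-Y box, the GC box or the E-box in either orientation, and no 2 of these matches overlapped in the stretches shown. The positions, all in GRCm38.p6, are chr11:78550736-78550985 on the minus strand for Tmem97, chr8:122443423-122443672 on the minus strand for Mvd, chr13:119690101-119690350 on the plus strand for Hmgcs1 and chr5:28071162-28071411 on the plus strand for Insig1.
Tmem97: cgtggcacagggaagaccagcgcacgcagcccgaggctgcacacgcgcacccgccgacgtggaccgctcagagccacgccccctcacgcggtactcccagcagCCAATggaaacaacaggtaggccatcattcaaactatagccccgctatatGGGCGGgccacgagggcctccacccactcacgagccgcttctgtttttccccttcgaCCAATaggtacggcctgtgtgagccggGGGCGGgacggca
Mvd: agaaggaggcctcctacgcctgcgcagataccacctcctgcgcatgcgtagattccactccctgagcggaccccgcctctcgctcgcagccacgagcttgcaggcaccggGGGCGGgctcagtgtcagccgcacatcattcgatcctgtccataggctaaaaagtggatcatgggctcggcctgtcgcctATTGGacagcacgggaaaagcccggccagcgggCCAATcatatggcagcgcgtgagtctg
Hmgcs1: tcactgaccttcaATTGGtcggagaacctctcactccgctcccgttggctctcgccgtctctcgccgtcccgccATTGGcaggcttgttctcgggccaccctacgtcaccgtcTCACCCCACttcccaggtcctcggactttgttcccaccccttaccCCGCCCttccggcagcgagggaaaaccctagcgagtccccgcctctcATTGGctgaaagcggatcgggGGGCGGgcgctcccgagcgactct
Insig1: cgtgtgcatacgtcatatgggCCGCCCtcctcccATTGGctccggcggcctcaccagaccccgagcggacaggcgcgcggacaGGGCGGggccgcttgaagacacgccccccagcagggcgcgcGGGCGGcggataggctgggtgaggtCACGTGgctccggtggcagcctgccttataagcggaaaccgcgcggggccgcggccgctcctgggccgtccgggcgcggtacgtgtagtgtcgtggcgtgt
In these stretches Tmem97 and Mvd each have 2 NF-Y boxes, while Hmgcs1 is alone in carrying the sterol response element, with 3 NF-Y boxes beside it. Tmem97 and Mvd both hold NF-Y and GC boxes, and they were called in opposite directions under PP242.

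Levels are log2 signals relative to the 75th percentile of the same array, so a difference of 1 is a 2-fold difference, and levels are compared only within a gene. The arrays were of unequal quality. On 8 of them, called wide-range here, the 75th percentile of the signal was 261 to 420 times the 25th (DMSO 1, 3 and 4, rapamycin 1, 2 and 4, PP242 2 and 3). On DMSO 2, rapamycin 3, PP242 1 and PP242 4 that ratio was 51.1, 7.12, 21.9 and 13.6, and 78.0 to 97.9% of probes were well above background, against 55.8 to 60.5% on the wide-range arrays. The main comparisons use the 8 wide-range arrays, and the counts of genes called over all 12 arrays are given beside them. All 28 genes were well above background on all 12 arrays, so no filter on dim probes touched them. On the 8 arrays, 10 of 10 fibroblast markers were well above background on every array, while 0 of 6 epithelial and 0 of 5 endothelial markers were. Of the adipocyte and muscle lists Fabp4 and Acta1 were. The part of other cell types in the results was not tested.

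The replicate 4 arrays are shown apart. Against the other arrays of its group numbered 1 to 3 (rapamycin 3 left out), DMSO 4 was lower for 24 of the 28 genes, with a median difference of -0.33, while the median over all genes was 0.003. On rapamycin 4, 24 of 27 genes were lower (median -0.57, all genes 0.02), and on PP242 4, 27 of 28 (median -1.13, all genes 0.0005). Rapamycin 3, the array with the narrowest signal range, had a median of -2.09, and that of all genes was -0.51. PP242 1 was lower for 26 of 28 genes, by less (median -0.17, all genes -0.0075). Sterol genes thus sat low in the replicate 4 array of every group, the controls included, in the same direction but by unequal amounts. DMSO 4 and rapamycin 4 are wide-range arrays. PP242 4 is not, so its offset cannot be told apart from its narrow signal range. The part of the replicate 4 offset in the results below was not tested beyond leaving the replicate 4 arrays out and fitting the replicate number as a block. The main calls are also given over the 6 wide-range arrays that remain without replicate 4, 2 in each group.

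**Figure D1:**
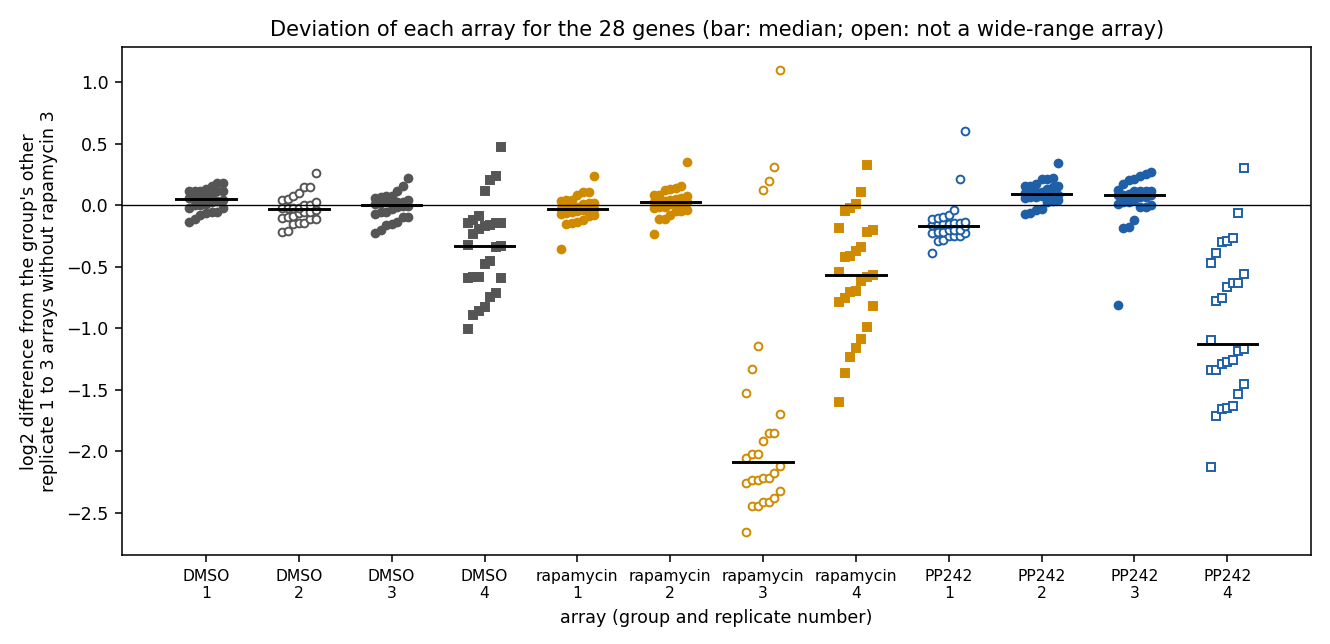
Each point is 1 of the 28 genes on 1 array, as the log2 difference from the mean of the group's other arrays numbered 1 to 3 (rapamycin 3 is never part of that mean); bars are medians, squares are replicate 4 arrays and open symbols are arrays outside the wide-range 8. The medians are -0.33, -0.57 and -1.13 on the replicate 4 arrays of DMSO, rapamycin and PP242 and -2.09 on rapamycin 3.

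The genes that PP242 lowered on the 8 arrays belong to sterol uptake and transport, and the one it raised belongs to the mevalonate arm. Tmem97, a membrane protein of the endoplasmic reticulum and lysosome that binds NPC1, fell 4.36-fold, the lipoprotein and reelin receptor gene Lrp8 fell 2.33-fold, and Stard4, which carries sterol through the cytosol, fell 1.63-fold. The mevalonate enzyme gene Mvd rose 1.39-fold. The other 24 genes did not pass the test on the 8 arrays. With 4 of 28 genes called in limma, against 25.9% of all genes tested, the share called was no higher than the background. Of the 4, 1 was higher (12.9% of all genes) and 3 were lower (12.9%). Its median log2 fold change was 0.14, and that over all genes -0.01.

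Tmem97 (chr11:78541817-78550735 in GRCm38.p6) stood at 3.29, 3.13, 3.28 and 3.15 on DMSO arrays 1 to 4, at 2.67, 2.63, 0.73 and 2.46 on the rapamycin arrays and at 1.01, 1.10, 1.12 and 0.81 on the PP242 arrays. Every PP242 array lay below every DMSO array, replicate 4 included, by close to the same amount. Rapamycin levels fell between the 2 other groups, apart from rapamycin 3, which was lower than any PP242 array. On the 8 arrays the means were 3.24 ± 0.08 (SD, n = 3) with DMSO, 2.59 ± 0.11 (n = 3) with rapamycin and 1.11 ± 0.01 (n = 2) with PP242. The log2 fold change of PP242 against DMSO was -2.12 ± 0.10 (SE; limma adjusted p = 0.000425). The difference was -2.11 within slide 1 and, over all 12 arrays, -2.17 within slide 2 and -2.27 within slide 3, so each of the slides gave a difference of the same size. The call held in 24 of 25 alternative settings, with values between -2.20 and -1.86. Over the 6 arrays it was -2.17 ± 0.05 (0.000637). Over all 12 arrays it was -2.20 ± 0.40, with an adjusted p of 0.0534. Tmem97 had 1 probe, so no second probe could be set beside it.

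Lrp8 (chr4:107802200-107876840) stood at -0.26, -0.52, -0.36 and 0.09 with DMSO, at -0.39, -0.62, -0.19 and -0.18 with rapamycin and at -1.18, -1.35, -1.45 and -1.02 with PP242. The 4 PP242 arrays were the lowest of the 12, and the DMSO and rapamycin arrays overlapped. On the 8 arrays the means were -0.18 ± 0.24 (SD, n = 3), -0.40 ± 0.22 (n = 3) and -1.40 ± 0.07 (n = 2). The log2 fold change of PP242 against DMSO was -1.22 ± 0.18 (limma adjusted p = 0.0052), and -1.09 ± 0.11 (0.0027) over the 6 arrays. Its 3 probes gave differences of -1.62, -1.22 and -1.69.

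Stard4 stood at 2.02, 1.97, 1.93 and 1.78 with DMSO, at 1.74, 1.69, -0.14 and 1.67 with rapamycin and at 1.17, 1.30, 1.11 and 0.72 with PP242. All PP242 arrays were below all DMSO arrays, and rapamycin 3 was below every other array. The means on the 8 arrays were 1.91 ± 0.12 (SD, n = 3), 1.70 ± 0.04 (n = 3) and 1.20 ± 0.13 (n = 2). The log2 fold change of PP242 against DMSO was -0.70 ± 0.11 (limma adjusted p = 0.0059), and -0.77 ± 0.09 (0.0039) over the 6 arrays. Its 3 probes gave -0.57, -0.70 and -0.73. The calls of Lrp8 and Stard4 were lost without PP242 3 (adjusted p = 0.0511 and 0.0608) and with the slide as a block (0.0587 and 0.0714), and over all 12 arrays (0.107 and 0.592), with log2 fold changes there of -0.99 and -0.85. Both kept their direction in all 25 alternatives.

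The remaining genes of this group act in the lysosome, from which NPC2 and NPC1 hand cholesterol on to other membranes. Npc1 differed by 0.74 ± 0.51 (limma adjusted p = 0.348) and Npc2 by 0.43 ± 0.19 (0.145) on the 8 arrays. Neither passed there. Over the 6 arrays without replicate 4 both were called higher, Npc1 at 0.39 ± 0.06 (0.0075) and Npc2 at 0.31 ± 0.08 (0.0392), so that all 5 genes of uptake and transport were called, 3 lower and 2 higher. In that fit 47.5% of all genes were called, 25.5% higher and 22% lower. The drop in the estimate for Npc1 came with the loss of DMSO 4, where it stood at -1.85 while DMSO 1 and 3 stood at -0.86 and -0.77.

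**Figure D2:**
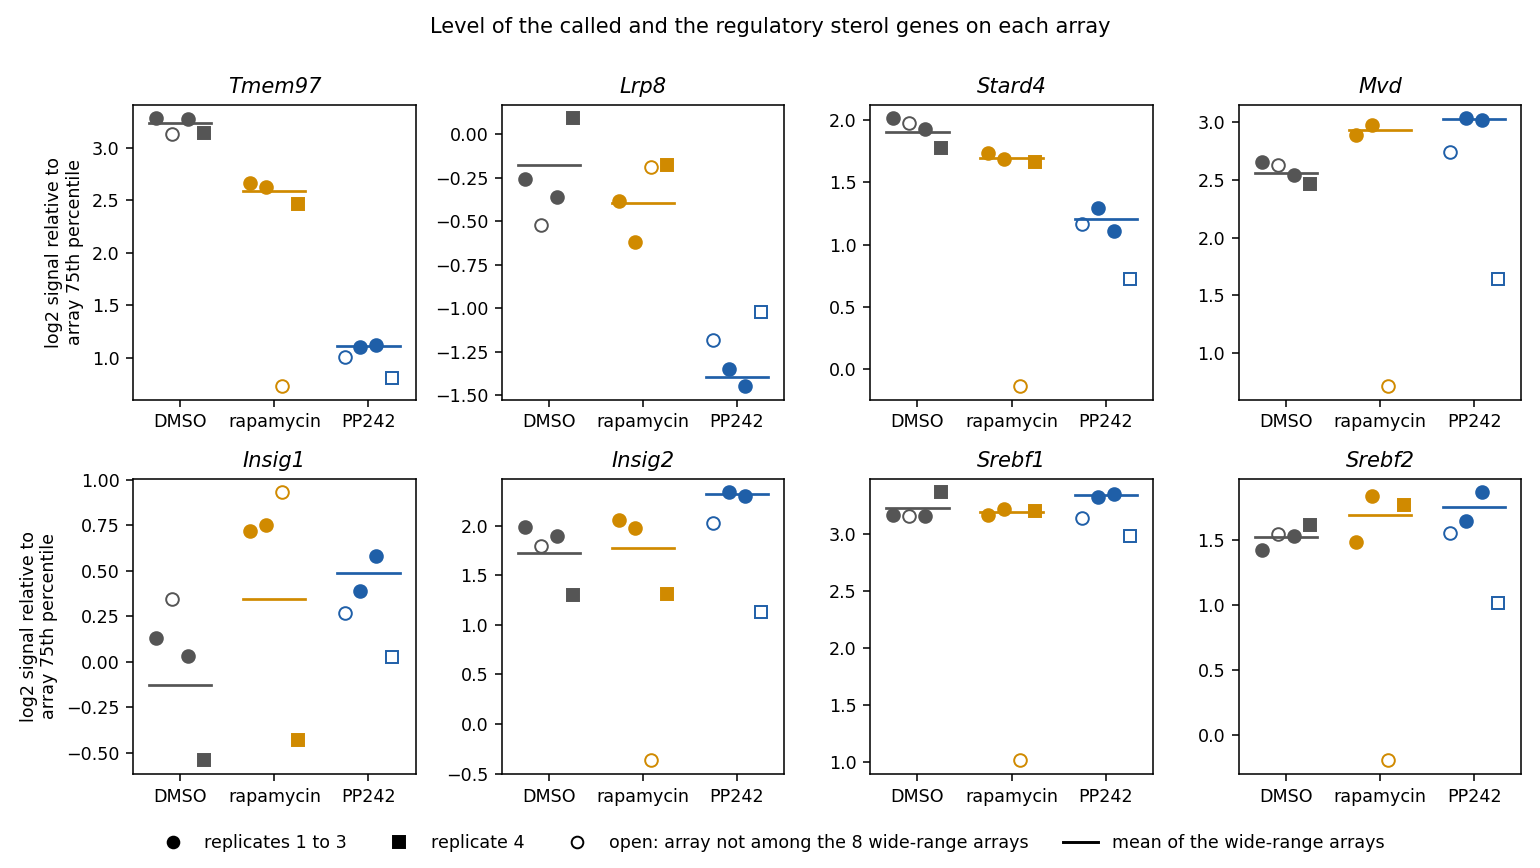
Log2 signal relative to the array's 75th percentile for 8 genes on each of the 12 arrays, with lines at the means of the wide-range arrays, squares for replicate 4 and open symbols for arrays outside the wide-range 8. For Tmem97 all 4 PP242 arrays (0.81 to 1.12) lie below the DMSO arrays (3.13 to 3.29), and rapamycin 3 lies apart from its group for Tmem97, Stard4, Mvd, Insig2, Srebf1 and Srebf2.

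In the mevalonate arm 1 of 7 genes passed under PP242. Mvd, the decarboxylase that makes isopentenyl diphosphate (chr8:122433596-122443422), stood at 2.65, 2.63, 2.55 and 2.47 with DMSO, at 2.89, 2.97 and 0.71 on rapamycin 1 to 3 (the spot of rapamycin 4 was rejected by the scanner software and its value dropped) and at 2.75, 3.03, 3.02 and 1.64 with PP242. The PP242 arrays 1 to 3 were above all DMSO arrays, and PP242 4 was below all of them. The log2 fold change on the 8 arrays was 0.47 ± 0.10 (limma adjusted p = 0.0235), and 0.43 ± 0.07 (0.009) over the 6 arrays. This call was the least firm of the 4. It was lost without DMSO 3, rapamycin 1, rapamycin 2, PP242 2 or PP242 3 (adjusted p = 0.0733, 0.0535, 0.0511, 0.135 and 0.135), with the slide (0.45, 0.192) or the replicate number (0.41, 0.132) as a block, and in 14 of 25 alternatives in all, and the estimate was 0.04 over all 12 arrays, where DMSO and PP242 overlapped.

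The kinases next to it in the arm lay on the other side of 0. Pmvk differed by -0.38 ± 0.12 (limma adjusted p = 0.0677) and Mvk by -0.38 ± 0.24 (0.301). For both, all 4 PP242 arrays were below the DMSO arrays (for Mvk, PP242 2 only just below DMSO 4, both near 1.44), and over the 6 arrays both were called lower, Mvk at -0.53 ± 0.11 (0.0221) and Pmvk at -0.31 ± 0.07 (0.0238). The 2 probes of Pmvk gave -0.38 and -0.39, whereas those of Mvk gave -0.38 and 0.35, so the direction of Mvk depends on the probe. The entry enzymes Acat2 (-0.41 ± 0.55) and Hmgcs1 (0.21 ± 0.15) and the prenyl diphosphate synthases Fdps (0.16 ± 0.27) and Ggps1 (0.13 ± 0.10) did not pass on the 8 or the 6 arrays.

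Of the 11 enzymes from squalene to cholesterol, 0 passed on the 8 arrays in limma. An unadjusted p under 0.05 was reached by 0 of them, against 7431 of 19669 genes. Their log2 fold changes ran from -0.25 (Sc5d, a sterol desaturase) to 0.41 (Fdft1, squalene synthase), with a median of 0.09. The median was -0.02 over the 6 arrays, where 6 of the 11 values were negative, and -0.39 over all 12 arrays, where 10 of 11 were negative, so its sign depends on the arrays used. Sqle, squalene epoxidase and a rate-controlling step, differed by 0.09 ± 0.20 (limma adjusted p = 0.772). The lanosterol demethylase Cyp51 differed by 0.34 ± 0.21 (0.282) and Msmo1, a methyl sterol oxidase, by 0.04 ± 0.28 (0.937). The 3 probes of Cyp51 gave 0.34, 0.28 and -0.19 on the 8 arrays, so its direction depends on the probe. Without replicate 4 the spread was smaller and 5 of the 11 were called in limma. Sc5d was lower at -0.54 ± 0.06 (0.0035), the sterol isomerase Ebp at -0.44 ± 0.09 (0.0194) and the lanosterol synthase Lss at -0.28 ± 0.07 (0.0289). Fdft1 was higher at 0.36 ± 0.06 (0.0135) and the reductase Dhcr7 at 0.22 ± 0.06 (0.0423). These 5 of 11 are close to the 47.5% of all genes called in that fit. The sterol reductases and dehydrogenases Tm7sf2 (-0.02 ± 0.06), Nsdhl (0.07 ± 0.08) and Hsd17b7 (-0.35 ± 0.14) did not pass there.

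**Figure D3:**
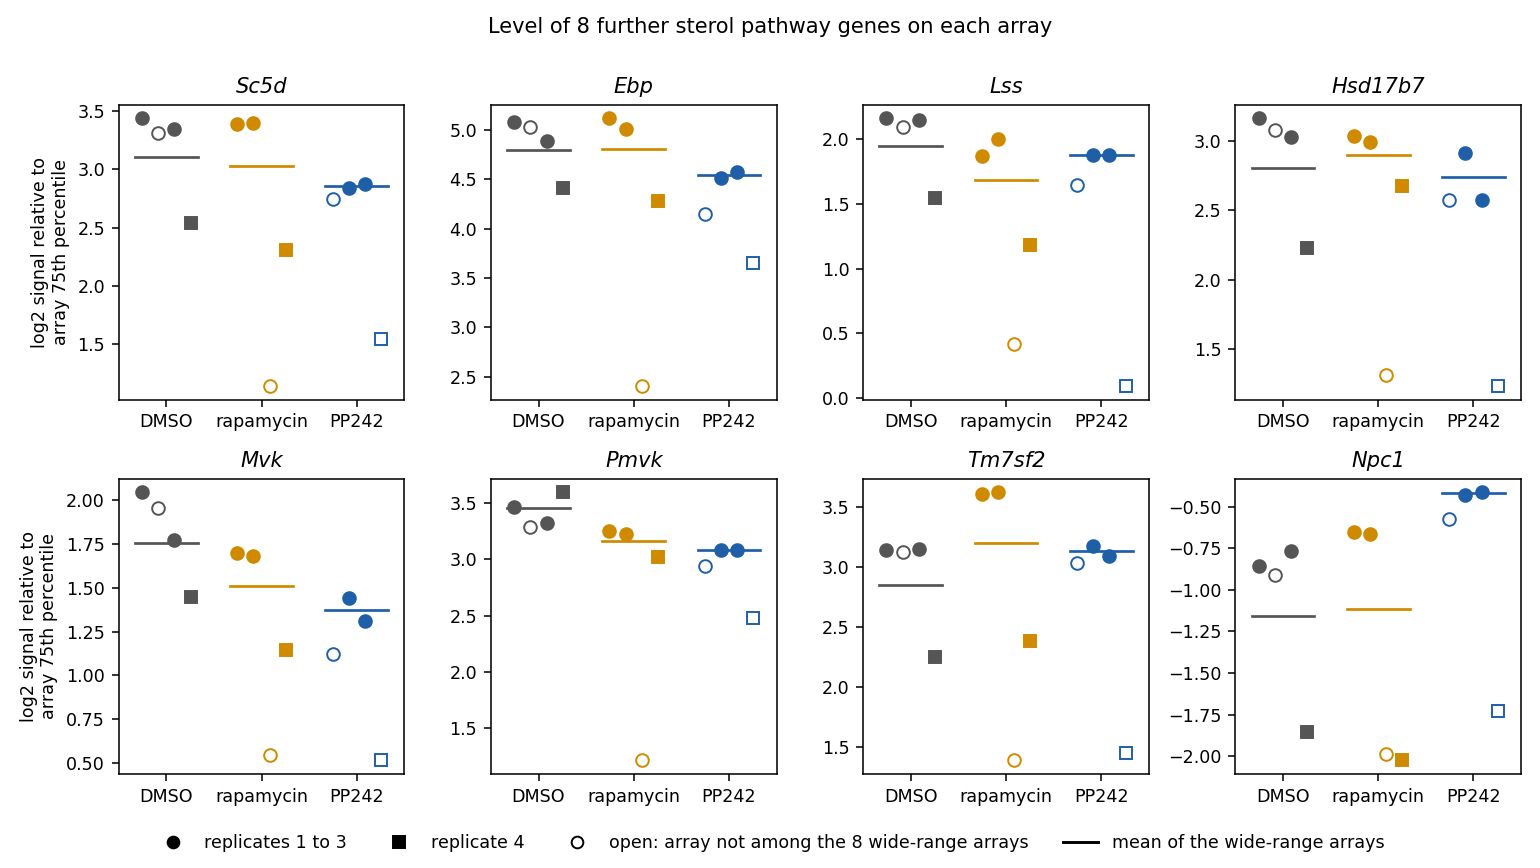
Log2 signal relative to the array's 75th percentile for 8 more genes, chosen after their values were seen, on the 12 arrays; lines are means of the wide-range arrays, squares are replicate 4 and open symbols are arrays outside the wide-range 8. Sc5d is at 2.74 to 2.87 on PP242 1 to 3 and at 3.31 to 3.44 on DMSO 1 to 3, and DMSO 4 is at 2.54, below those PP242 arrays.

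Of the 5 genes of SREBP control 0 passed in limma under PP242 on the 8 arrays. An unadjusted p under 0.05 was reached by 0 of them, against 7431 of 19669 genes. All 5 log2 fold changes were positive on the 8 arrays (median 0.28) and over the 6 arrays (0.28). Over all 12 arrays 3 of the 5 were negative (median -0.01), so this direction was not kept. Insig1, itself a well known target of SREBP, stood at 0.13, 0.34, 0.03 and -0.54 with DMSO, at 0.72, 0.75, 0.93 and -0.43 with rapamycin and at 0.27, 0.39, 0.58 and 0.02 with PP242. Replicate 4 was the lowest array of each group, and rapamycin 1 to 3 were the highest of all. PP242 against DMSO gave 0.61 ± 0.40 (adjusted p = 0.32), and 0.41 ± 0.09 (0.0232) over the 6 arrays.

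Insig2, the second retention factor, stood at 1.98, 1.80, 1.90 and 1.30 with DMSO, at 2.06, 1.97, -0.37 and 1.31 with rapamycin and at 2.03, 2.34, 2.30 and 1.13 with PP242. PP242 1 to 3 were above all DMSO arrays, and replicate 4 was low in every group. The fold change was 0.59 ± 0.29 (limma adjusted p = 0.196), and 0.38 ± 0.06 (0.0112) over the 6 arrays.

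Srebf1, which encodes SREBP-1, stood at 3.16, 3.16, 3.15 and 3.37 with DMSO, at 3.17, 3.21, 1.02 and 3.20 with rapamycin and at 3.14, 3.33, 3.35 and 2.98 with PP242. DMSO and PP242 overlapped on the 8 and on all 12 arrays, and apart from rapamycin 3 all arrays lay in a narrow band. PP242 against DMSO gave 0.11 ± 0.10 (limma adjusted p = 0.474), and 0.18 ± 0.05 (0.049) over the 6 arrays. Srebf2, which encodes SREBP-2, the main activator of sterol genes, stood at 1.43, 1.55, 1.53 and 1.61 with DMSO, at 1.48, 1.83, -0.19 and 1.76 with rapamycin and at 1.55, 1.64, 1.86 and 1.02 with PP242. The groups overlapped over all 12 arrays, while on the 8 arrays both PP242 values lay above the DMSO values, with a log2 fold change of 0.23 ± 0.14 (0.297). The second probe of Srebf2, far dimmer at a mean of -4.91 with DMSO, gave -0.15 on the 8 arrays. Scap, the escort, differed by 0.28 ± 0.14 (0.205). The transcript level says nothing of how much SREBP was cleaved.

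Over the 6 arrays 16 of the 28 genes were called under PP242, against 47.5% of all genes. They were 8 higher (25.5% of all genes) and 8 lower (22%). All 4 genes called on the 8 arrays were among the 16. Over the arrays numbered 1 to 3 without rapamycin 3, a set chosen after the data had been seen, 13 genes were called, against 39.9% of all genes, and 12 of them were shared with the 16 in the same direction. Over all 12 arrays 0 of 28 passed in limma, against 0.379% of all genes. An unadjusted p under 0.05 was reached by 2 of the 28, against 2329 of 25581 genes. There the median log2 fold change was -0.24 over the 28 genes and 0.38 over all genes. With quantile normalisation of the same 12 arrays these medians were -0.036 and 0.014, so the gap between them depends on the scaling. The number of genes called thus went from 0 to 16 with the choice of arrays, while Tmem97, Lrp8, Stard4 and Mvd kept their sign throughout. The groups did not overlap on the 8 arrays for 17 of the 28 genes, against 59% of all genes. PP242 lay below in 5 of them (29.2% of all genes) and above in 12 (29.8%). Over the arrays numbered 1 to 3 without rapamycin 3, PP242 lay below DMSO for 10 genes (25% of all genes) and above for 7 (25.6%). Over all 12 arrays PP242 lay below DMSO for 5 genes, Tmem97, Lrp8, Stard4, Mvk and Pmvk (17.9% of all genes). It lay above for 0 (11.5% of all genes).

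Rapamycin changed 0 of the 28 genes by the test on the 8 arrays. In limma 5 of 19669 genes, 0.0254%, passed at all. An unadjusted p under 0.05 was reached by 3 of the 28, against 2585 of 19669 genes. The nearest was Tmem97 at -0.65 ± 0.09 (adjusted p = 0.0775), with every rapamycin array, over all 12, below every DMSO array. The difference within slide 1 was -0.55 and within slide 3 was -0.81. Mvd was at 0.38 ± 0.10 (0.245), Pmvk at -0.30 ± 0.11 (0.335), Insig1 at 0.47 ± 0.36 (0.651), Stard4 at -0.21 ± 0.10 (0.44) and Lrp8 at -0.22 ± 0.16 (0.648). Over the 6 arrays, where 9.13% of all genes passed, 3 of the 28 did. Tmem97 was lower at -0.63 ± 0.05 (0.0196; 3.3% of all genes were lower), and Tm7sf2, a sterol reductase (0.47 ± 0.06, 0.0303), and Insig1 (0.65 ± 0.09, 0.0344) were higher (5.83%). Tm7sf2 stood at 3.61 and 3.62 on rapamycin 1 and 2 and at 3.14, 3.12 and 3.15 on DMSO 1 to 3, but at 2.38 and 2.25 on the replicate 4 arrays of these groups. Over all 12 arrays 0 of 28 passed in limma, as did 0% of all genes. An unadjusted p under 0.05 was reached by 1 of the 28, against 460 of 25581 genes. Groups did not overlap on the 8 arrays for 4 of the 28 genes (18.6% of all genes), with rapamycin below for Pmvk, Stard4 and Tmem97 (10.3%) and above for Mvd (8.29%). The first 3 also lay below DMSO over all 12 arrays (5.92%).

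**Figure D4:**
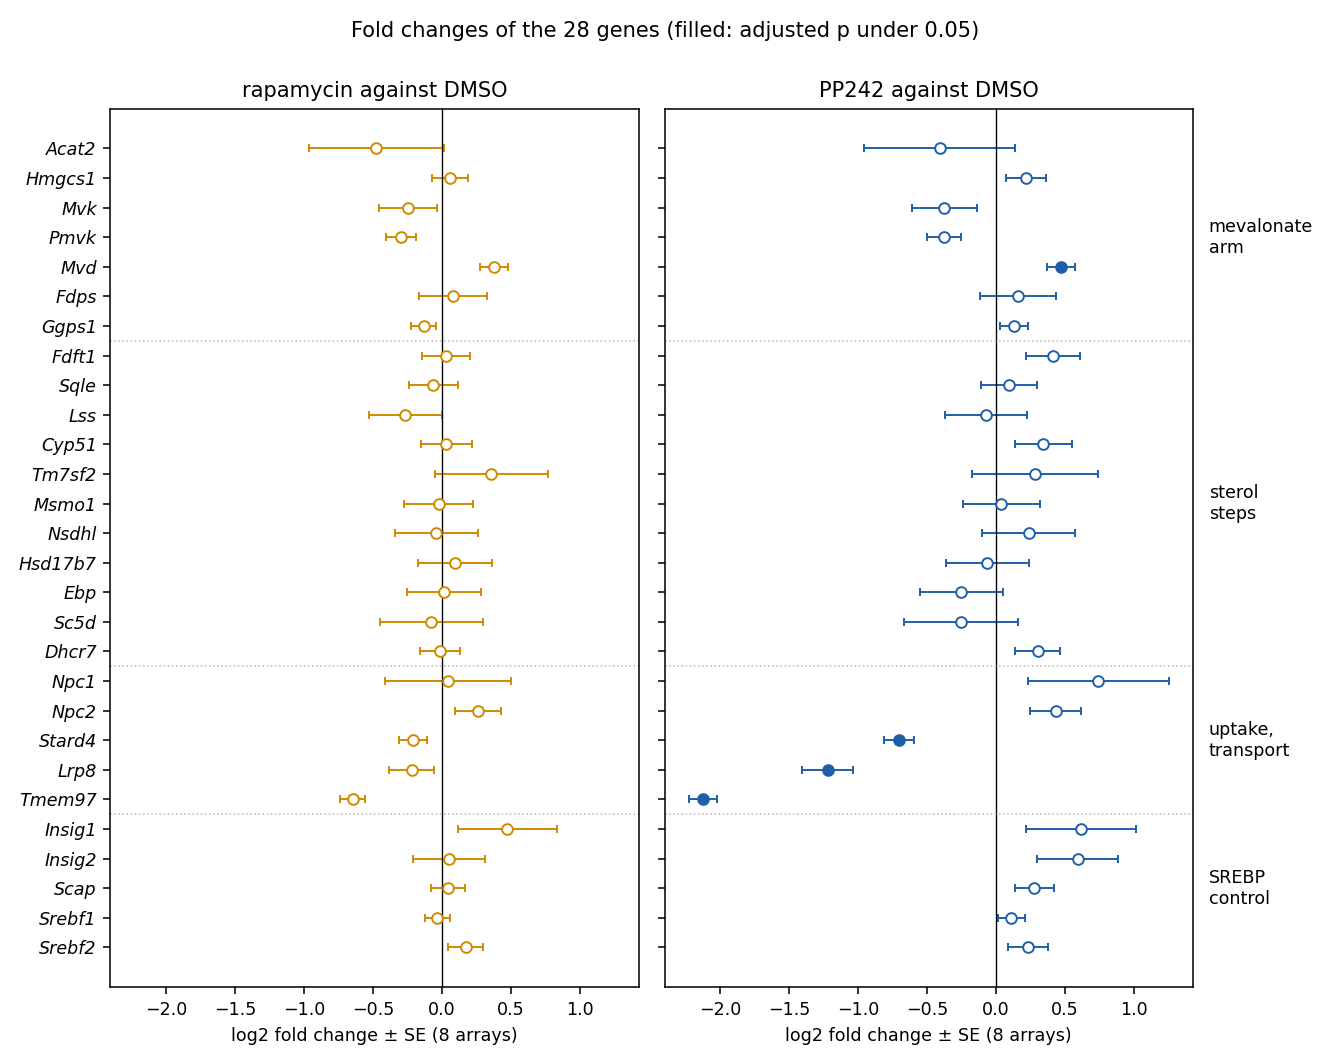
Log2 fold changes with standard errors for the 28 genes on the 8 wide-range arrays, rapamycin against DMSO on the left and PP242 against DMSO on the right, with genes grouped by role; filled points have an adjusted p under 0.05. Filled points are Tmem97, Lrp8, Stard4 and Mvd under PP242, and there are 0 under rapamycin.

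Set directly against each other, PP242 and rapamycin differed for 3 genes of uptake and transport, each also called between PP242 and DMSO. Tmem97 was lower with PP242 by 2.78-fold (log2 fold change -1.48 ± 0.10, limma adjusted p = 0.0011), Lrp8 at -1.0 ± 0.18 (0.018) and Stard4 at -0.49 ± 0.11 (0.033). These 3 of 28 compare with 13.9% of all genes called in this comparison and 7.08% of all genes called lower. The values over the 6 arrays were -1.54 ± 0.05 (0.0017), -0.89 ± 0.11 (0.0074) and -0.51 ± 0.09 (0.0168). They were, over all 12 arrays, -1.11 ± 0.40 for Tmem97, -0.91 ± 0.23 for Lrp8 and -0.17 ± 0.40 for Stard4. Within slides 1 and 2 Tmem97 differed by -1.57 and -1.51 on the 8 arrays, and within slide 3 over all 12 arrays, where rapamycin 3 lies, by -0.59. Stard4 differed by -0.44 and -0.58 within slides 1 and 2 and by 0.40, in the opposite direction, within slide 3. Stard4 ran over the alternatives from -0.63 to -0.06. The call of Lrp8 was lost without rapamycin 1, PP242 2 or PP242 3 (adjusted p = 0.0591, 0.108 and 0.139), and that of Stard4 without DMSO 3 (0.0662), any of rapamycin 1, 2 and 4 (0.101, 0.0895 and 0.0537) or either PP242 array (0.11 and 0.233). With the replicate number as a block Lrp8 was at an adjusted p of 0.0523 and Stard4 at 0.0983. For 12 of the 28 genes the groups did not overlap on the 8 arrays, against 53.5% of all genes. Over all 12 arrays 0 of 28 were called in limma (0% of all genes). An unadjusted p under 0.05 was reached by 2 of the 28, against 1065 of 25581 genes.

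Over the 6 arrays 9 of the 28 were called between the inhibitors, against 34.4% of all genes. Of these 6 were lower with PP242 (15.8% of all genes). Beside Tmem97, Lrp8 and Stard4, 3 enzymes of the sterol steps were among them, namely Sc5d (-0.54 ± 0.06, 0.0061), Ebp (-0.52 ± 0.09, 0.0172) and Tm7sf2 (-0.49 ± 0.06, 0.007), all by limma. Insig2 (0.30 ± 0.06, 0.0277), Npc1 (0.24 ± 0.06, 0.0393) and Ggps1, which makes geranylgeranyl diphosphate (0.26 ± 0.06, 0.0445), were higher (18.6%). Sc5d stood at 3.39 and 3.40 on rapamycin 1 and 2 and at 3.44 and 3.35 on DMSO 1 and 3, so that rapamycin and DMSO overlapped where PP242 was lower. Insig1 was higher than DMSO with both inhibitors and did not pass between them (-0.25 ± 0.09, 0.104).

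Other genes around the pathway were taken from lists by role. Unless stated otherwise, the values are for PP242 against DMSO on the 8 arrays. Of 12 tested genes of the isoprenoid branch 1 passed, Pdss1, which makes the side chain of ubiquinone (-1.66 ± 0.16, limma adjusted p = 0.001). Among 15 further genes of uptake and storage, those called were lower, among them Stard5, a sterol carrier (-0.37 ± 0.09, 0.031). Among 13 genes of SREBP processing and degradation in the endoplasmic reticulum, the SREBP protease gene Mbtps2 was higher (0.81 ± 0.16, 0.012), and Vcp, an ATPase that extracts proteins for degradation, was lower (-0.45 ± 0.10, 0.0187). Of 12 genes of fatty acid synthesis linked to SREBP, 0 passed on the 8 arrays in limma. An unadjusted p under 0.05 was reached there by 4 of them, against 7431 of 19669 genes. Over the 6 arrays 7 passed, 3 higher and 4 lower, where 47.5% of all genes passed. Of 6 tested genes tied to the oxysterol receptor LXR, Apoe was lower (-0.96 ± 0.16, 0.0079), and Nr1h2 (0.34 ± 0.09, 0.0341) and Mylip (0.36 ± 0.10, 0.0351) were higher. Rapamycin gave 0 limma calls in each of these lists on the 8 arrays. There 1 to 3 genes a list had an unadjusted p under 0.05, against 2585 of 19669 genes. Under PP242 against DMSO over the 6 arrays, 6 of 13 genes of SREBP processing and 7 of 15 of uptake and storage passed. So did 3 of 12 of the isoprenoid branch and 6 of 6 of the LXR list, where 47.5% of all genes passed. Under rapamycin against DMSO over the 6 arrays the counts for these lists were 0, 2, 0 and 1, against 9.13% of all genes. On the 8 arrays, apart from the LXR list with 3 of 6 genes, the shares called under PP242 were below 25.9%. Over all 12 arrays 0 genes of these lists passed in limma. There 0 or 1 gene a list had an unadjusted p under 0.05, against 2329 of 25581 genes under PP242.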

How the data were processed

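RNA of 12 NIH3T3 samples, 4 each with DMSO, rapamycin or PP242, had been amplified, labelled with Cy3 and hybridised to 1 array each, per the labels' protocols. The titles gave each sample's group and number. For every array the deposited scanner file gives 45018 spots as linear intensity. The processed signal had its background removed and spatial trends taken out inside the scanner software, per the file headers. That software, Feature Extraction, has version 10.5.1.1 in the headers and 10.1 in the submitters' processing notes. The deposited log2 values of the whole series have medians of 8.54 to 8.56 per array. Their scaling is not stated, and they served as an alternative only.

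The 1639 controls and the spots that the software rejected as uneven or as outliers (1.34% of values) were removed, spots of a probe were averaged, log2 was taken and the array's 75th percentile subtracted. Of 41174 probes 24844 had a gene symbol through their accession and 16330 had just an accession. The 28 genes were read by 47 probes. A probe was kept if 2 or more of 8 arrays (4 of 12) had it well above background, and the brightest probe stood for its gene. No spot used was saturated. Of the 15 genes with several probes, 6 had probes of opposite sign for PP242 against DMSO on the 8 arrays (Cyp51, Hmgcs1, Hsd17b7, Lss, Mvk and Srebf2).

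limma 3.58.1 in R 4.3.3 (lmFit and eBayes, all groups in 1 fit, two-sided, Benjamini-Hochberg over all 19669 genes tested, 25581 over 12 arrays, threshold 0.05) was run on the 8 arrays whose 75th percentile was over 100 times the 25th. The pipeline was tested on simulated data. The members, the lists, the array selection and the rule for named genes were chosen with earlier results of these data known. By that rule, values on every array are given for members called on the 8 arrays and for Srebf1, Srebf2, Insig1 and Insig2. Tables and figures used Python 3.11.15 with matplotlib 3.10.9, pandas 2.3.3 and numpy 2.4.6, besides version 1.17.8 of data.table in R. Alternatives were all 12 arrays (also quantile-normalised or weighted), median centring, quantile normalisation, the deposited values and normexp with an offset of 50. Normexp was run on the median spot signal, because the scanner data available here held no mean spot signal. Further alternatives were other filters, the mean of probes, pairwise fits, slide or replicate as a block, an intensity trend, and leaving out replicate 4 or each array. The last were 2 sets of arrays added after the data had been seen. On the 8 arrays, deviations of same-numbered DMSO and rapamycin arrays correlated at 0.45 (replicate 1) and 0.62 (replicate 4). Differently numbered arrays of these groups ran from -0.47 to 0.39. DMSO 3 with PP242 3 gave 0.12 and rapamycin 2 with PP242 2 gave -0.25. The 2 PP242 arrays deviate from their mean by equal and opposite amounts, so pairs with PP242 cannot decide whether the numbers are pairs. The main fit did not take the numbers as pairs, and a fit with the replicate as a block is among the alternatives. Precision is limited by the 2 or 3 arrays per group. Some genes of the marker and pathway lists are not reported here.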

Additional observations from a re-analysis of the deposited data

Results flagged for a closer look

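Within each group of 4 arrays, the highest and the lowest value of every gene were set against the other 3 by Dixon's criterion at 95%. Of 83 such groups (28 genes, 3 treatments, less 1 where a spot was dropped) 27 held an array far from the others. All were arrays numbered 3 or 4, and 26 of the 27 were low. Chance gives about 1 in 20 for a single test. The genes were read on the same arrays, so the 83 tests are not independent and that rate is only nominal. The share flagged among all genes is not given here, so whether sterol genes were flagged more often than others was not tested. The part of array quality in the flagged values was not tested.

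On PP242 4, 12 genes stood far below PP242 1 to 3. They were the mevalonate enzymes Hmgcs1 (3.84) and Fdps (3.45), the sterol enzymes Fdft1 (2.06), Sqle (3.80), Lss (0.09), Cyp51 (1.34), Tm7sf2 (1.44), Msmo1 (4.17), Nsdhl (1.15), Sc5d (1.55) and Dhcr7 (0.86), and Npc1 (-1.73), all in log2 signal relative to the array's 75th percentile.

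On DMSO 4, Fdps (4.75), Lss (1.54), Tm7sf2 (2.25), Msmo1 (5.41), Hsd17b7 (2.23), Sc5d (2.54) and Npc1 (-1.85) stood low, and Srebf1 (3.37) stood high. DMSO 4 is a wide-range array, so these values enter the main comparisons.

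On rapamycin 3, Hmgcs1 (2.58), Pmvk (1.21), Stard4 (-0.14), Tmem97 (0.73), Scap (2.11) and Srebf1 (1.02) stood low. Insig1 stood low on rapamycin 4 (-0.43).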

How the results depend on the processing

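Of the members called on the 8 arrays, those for PP242 against DMSO (4) and PP242 against rapamycin (3) kept their direction in all 25 alternatives tried. For PP242 against DMSO, members called were 0 with all 12 arrays (1 with quantile normalisation, 12 with array weights), 1 with the slide as a block, 16 without the arrays titled replicate 4, 13 over replicates 1 to 3 without rapamycin 3, and 1 to 6 without each array in turn. The counts over all genes (5087) were 97, 36, 10645, 1378, 9342, 7855 and 1753 to 6103 in the same order. For PP242 against rapamycin, members called were 0 with all 12 arrays (0 with quantile normalisation, 8 with weights), 1 with the slide as a block, 9 without replicate 4, 6 over replicates 1 to 3 without rapamycin 3, and 1 to 3 without each array. Over all genes (2735) the counts were 0, 0, 9084, 511, 6773, 4736 and 469 to 3466, and 1748 with median centring and 1625 with no filter on dim probes. For rapamycin against DMSO (0 members), 4 were called with all 12 arrays and weights, 1 with the filter of every array well above background, 1 with an intensity trend, 3 without replicate 4, 2 over replicates 1 to 3 without rapamycin 3, and 0 to 0 without each array. Over all genes (5) the counts were 0 with all 12 arrays, 0 with quantile normalisation of the 12, 3783 with weights, 0 with median centring, 22 with quantile normalisation, 9 with the deposited table, 15 with normexp, 0 with no filter, 67 with the strict filter, 0 with only the 2 groups compared, 0 with the slide as a block, 63 with the trend, 1796 without replicate 4, 826 over replicates 1 to 3 without rapamycin 3, and 0 to 96 without each array. With the replicate block, 4 members were called between PP242 and DMSO, beside 3951 of 19669 genes. These were 0 higher and 4 lower, against 1 and 3 without the block, so that Mvd was lost and Mvk gained. That block gave 1 member between the inhibitors (979 of all genes) and 0 under rapamycin (0 of all genes). With 11 arrays (no rapamycin 3) and the block, 6 members were called between PP242 and DMSO, beside 5961 of 19669 genes. Between the inhibitors 5 members were called in that fit, beside 3038 of 19669 genes. Rapamycin alone gave 0 genes there. The causes were not tested. Without a PP242 array that group has 1 array, assumed to vary like the others. With 2 or 3 arrays a group, which small changes pass depends on the arrays kept.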
